A study of Mus musculus with 6 samples.

Results

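The muscle acetylcholine receptor and the machinery that holds it at the neuromuscular junction were followed in mouse teratomas through 10 genes: the receptor subunits Chrna1, Chrnb1, Chrnd, Chrne and Chrng, and the clustering genes Agrn, Lrp4, Musk, Dok7 and Rapsn. The genes were picked by name, with earlier results of the same comparison in view, and are 10 of 37001 named genes on the array; 19 probes carry one of these names, and all 10 genes were among the 22946 tested. Teratomas, growths in which embryonic stem cells form many tissues side by side, were raised from mouse stem cells under the skin of BALB/c nude mice, which lack a thymus. In the control group 3 tumours received a microRNA negative control, and in the other group 3 tumours received a mimic of miR-124a-3p, a microRNA abundant in neurons. In both groups the RNA was given as Atelogen QG complexes injected into the tumour at 15 µg in 100 µL, every 3 days until day 28, from about day 10 after implantation, when tumours had reached at least 100 mm3. Each array is 1 tumour of 1 mouse, taken from 1 of the 2 pieces into which the tumour was cut, so fewer muscle cells and less RNA per muscle cell cannot be told apart. All control arrays lay in 1 row of the slide and all miR-124a arrays in the other, so treatment and slide row cannot be told apart either.

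At the neuromuscular junction acetylcholine from the motor nerve opens a receptor built from several subunits in the muscle membrane. Fetal muscle builds the receptor with the gamma subunit (Chrng), and adult muscle exchanges it for the epsilon subunit (Chrne). Agrin secreted by the nerve binds LRP4, which activates the kinase MuSK. The adaptor DOK7 sustains MuSK activity, and rapsyn, the product of Rapsn, gathers the receptors into dense clusters. Developing muscle fibres express the subunit genes along their whole length before innervation, under myogenic transcription factors that bind E-boxes.

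Signals are given as multiples of the array's 75th percentile of spot intensity, and differences as log2 miR-124a minus control with the standard error of the fit across all genes. Between 63.4% and 65.9% of probes per array were well above background, no spot was saturated, and the number of arrays limits the precision. Levels are not compared between genes, since probes differ in how strongly they bind.

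All 5 receptor subunits were lower in every miR-124a tumour than in every control tumour, by 2.53-fold to 3.41-fold. MuSK, DOK7 and rapsyn transcripts were lower in the same way, by 2.62-fold to 3.10-fold. The upstream pair did not follow: Agrn was 1.24-fold higher with miR-124a and Lrp4 was 1.13-fold lower, neither past the threshold. The fit across all genes (limma, adjusted p under 0.05) placed 8 of 10 members past the threshold, all lower, beside 2.75% of all genes tested that were called lower and 0.488% called higher. The tumours of the groups did not overlap for 8 members with miR-124a below, beside 20.6% of all genes, and for 1 with miR-124a above, beside 15.0%. The members were chosen with this comparison known, so these counts describe them and test nothing. The median log2 difference was -1.43 over the 10 members and -0.002 over all genes.

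The count of 8 changed when single tumours were left out, while the median difference of the 10 members stayed between -1.62 and -1.34. With control 1 or control 2 left out it was 0, and with control 3 left out it was 3. Leaving out miR-124a 1 gave 0, as did leaving out miR-124a 2, while 8 members passed when miR-124a 3 was left out. It was also 0 when no filter on dim probes was applied. Each value of these 8 genes stayed lower with miR-124a in all 15 alternative settings.

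**Figure D1:**
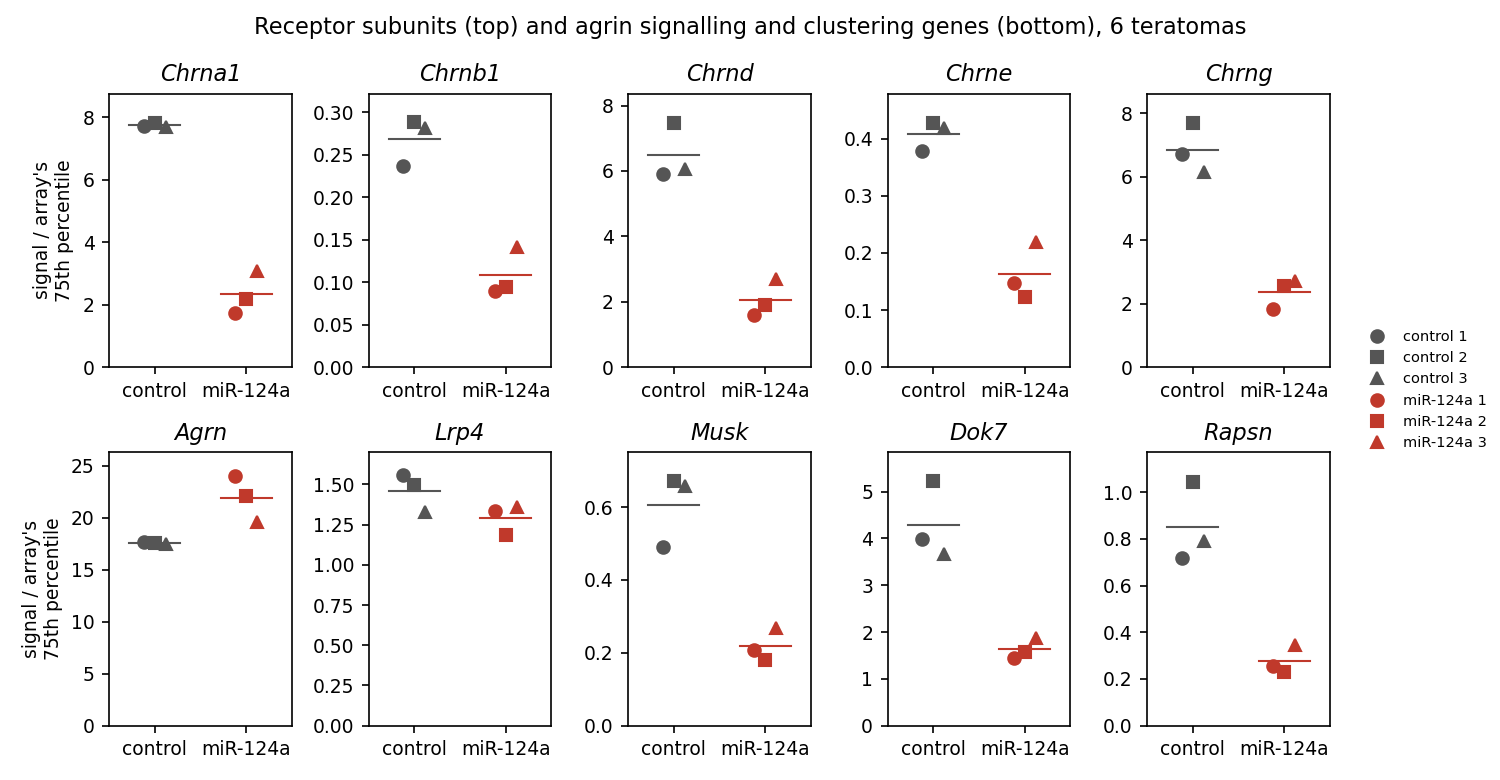
Signal of the 10 genes in each teratoma, as a multiple of the array's 75th percentile (vertical axes start at 0), for 3 control (grey) and 3 miR-124a (red) tumours; symbols mark the replicate and bars the mean. In 8 panels every red point lies under every grey point, Agrn is the only panel with every red point above, and the Lrp4 points overlap.

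Chrna1 encodes the alpha subunit, which carries the acetylcholine binding sites with its neighbours. Its probe (chromosome 2, 73404112 to 73404171, build mm9) had a signal of 7.73, 7.81 and 7.71 in control 1 to 3 and of 1.75, 2.19 and 3.07 in miR-124a 1 to 3. The controls were almost equal, while the miR-124a tumours spread from the lowest in miR-124a 1 to the highest in miR-124a 3. The log2 difference was -1.77 ± 0.21 (SE, n = 3 per group), or 3.41-fold lower.

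Chrnd encodes the delta subunit, present in both the fetal and the adult receptor, and lies next to Chrng on chromosome 1. Its signal at 89096585 to 89096644 was 5.91, 7.46 and 6.06 in the controls and 1.58, 1.91 and 2.69 in the miR-124a tumours. The lowest control was above the highest miR-124a tumour, and the difference was -1.68 ± 0.21 (3.20-fold lower).

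Chrng, the gamma subunit of the fetal receptor, had a signal of 6.72, 7.69 and 6.14 in the controls and of 1.82, 2.57 and 2.73 with miR-124a (chromosome 1, 89108141 to 89108200). Its groups did not overlap, and the difference was -1.55 ± 0.18, or 2.92-fold lower. A dimmer Chrng probe, at base 548 of the transcript (89104811 to 89104870), was well above background in all 3 controls and in 1 of 3 miR-124a tumours, with a difference of -1.99 ± 0.32. Most treated tumours were near background at that probe, so the size of its difference is uncertain.

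Chrne encodes the epsilon subunit of the adult receptor. Its signal was 0.378, 0.428 and 0.418 in the controls and 0.148, 0.122 and 0.219 with miR-124a (chromosome 11, 70428391 to 70428450), which is 2.58-fold lower with a difference of -1.37 ± 0.22. A second Chrne probe, designed on the predicted variant X3, was not well above background on any array and was not tested. The fetal and the adult subunit were thus both lower, by -1.55 and -1.37, and the difference between these values was not tested.

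Chrnb1, the beta subunit common to both receptor forms, was dim, with a signal of 0.237, 0.288 and 0.281 in the controls and 0.089, 0.094 and 0.141 with miR-124a (chromosome 11, 69598674 to 69599242, across a splice junction). Its groups did not overlap either, and the difference was -1.34 ± 0.20 (2.53-fold lower). Background correction by normexp with quantile scaling, which draws dim values together, reduced it to -0.57 and that of Chrne to -0.78.

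RefSeq promoter windows of build GRCm38.p6 were at hand for 7 of the 10 genes; Chrnd, Rapsn and Lrp4 were not matched. The 6 letters CAGCTG are an E-box with the core that MyoD and myogenin prefer. Among the windows at hand, those of Chrna1, Chrng, Chrne and Musk hold these letters. Those of Chrnb1, Dok7 and Agrn do not, and Chrnb1 and Dok7 were also lower with miR-124a. Whether the letters bear on the differences was not tested. The stretches below are those of the alpha, gamma and epsilon subunits, which are the receptor subunits whose windows hold these letters. Each is 160 bases; those of Chrna1 and Chrng end just before the start from which positions are counted, and that of Chrne ends 19 bases before it, where the gene begins in the RefSeq gene table, with the letters CAGCTG and CCGGAA in capitals; CCGGAA is the core of the N-box, a sequence known from promoters active under the synapse.
Chrna1, minus strand of chr2:73580339-73580498: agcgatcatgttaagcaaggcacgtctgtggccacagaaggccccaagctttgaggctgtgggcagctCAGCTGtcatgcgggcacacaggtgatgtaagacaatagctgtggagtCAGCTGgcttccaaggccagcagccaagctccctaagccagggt
Chrng, plus strand of chr1:87205651-87205810: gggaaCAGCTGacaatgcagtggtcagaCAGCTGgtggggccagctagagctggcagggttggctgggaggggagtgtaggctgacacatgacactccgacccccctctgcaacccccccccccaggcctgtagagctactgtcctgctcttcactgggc
Chrne, minus strand of chr11:70619214-70619373: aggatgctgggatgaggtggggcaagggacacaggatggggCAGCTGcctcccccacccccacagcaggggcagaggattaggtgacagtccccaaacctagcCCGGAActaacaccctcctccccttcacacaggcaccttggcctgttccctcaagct

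The 250 bases before the annotated start were searched on both strands for CANNTG (any E-box), for CAGCTG, which is one form of CANNTG, and for CCGGAA. The letters CAGCTG occurred at 2 places in Chrna1 and in Chrng and at 1 place in Chrne and Musk, so in 4 of the 9 windows of the 7 genes, beside 13% of 32851 windows in all; 2 or more copies were held by 1.26% of all windows. CCGGAA occurred in Chrne alone among these 9 windows, 76 bases before the start, beside 12% of all windows. CANNTG, which 66.2% of all windows hold, was found in 7 of the 9; the 1 window of Chrnb1 had 3 copies, none of them CAGCTG. The windows without any E-box letters were 1 of the 2 of Agrn and 1 of the 2 of Dok7. These are matches of letters, and binding was not measured.

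**Figure D2:**
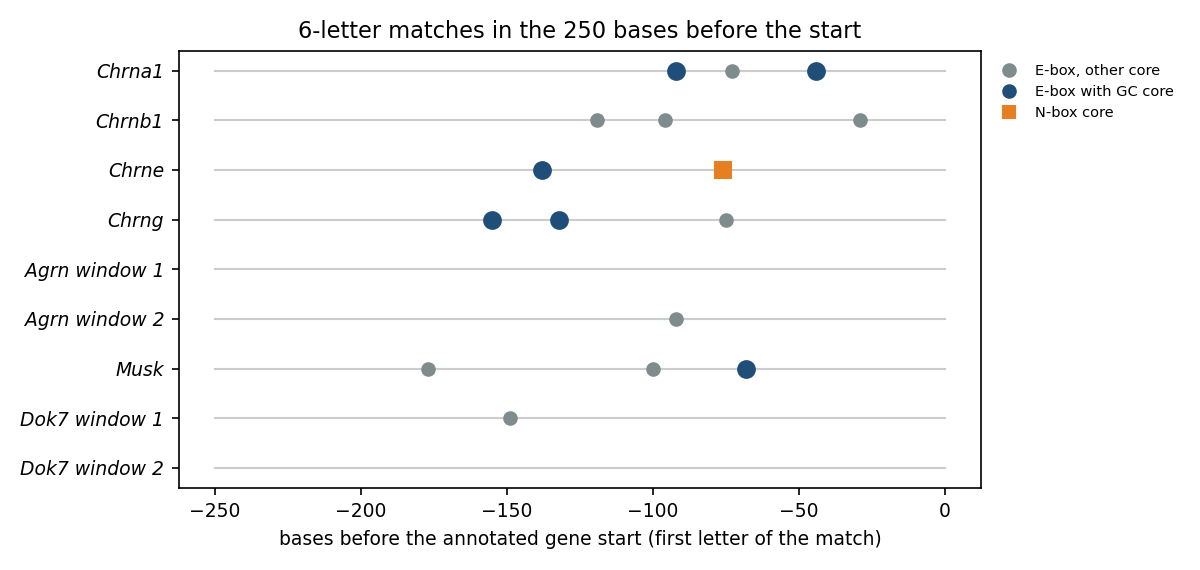
Positions of E-box and N-box letters in the 250 bases before the start in 9 RefSeq windows of 7 genes; the horizontal axis is the distance in bases from the start to the first letter of the match. Chrna1 and Chrng each carry 2 E-boxes with a GC core, Chrne carries 1 of these and the N-box core at -76, and neither Agrn nor Dok7 carries one with a GC core.

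The clustering genes are taken in the order of the signal from the nerve inwards. Agrn, the ligand, is also made by epithelia, vessels, glia and neurons. Its bright probe (chromosome 4, 155539415 to 155539474) had a signal of 17.6, 17.6 and 17.5 in the controls and of 24.0, 22.1 and 19.5 with miR-124a. All miR-124a tumours were above all controls, with a log2 difference of 0.31 ± 0.10 that did not pass the threshold; with normexp and quantile scaling it was 0.425 and passed. Its order among the treated tumours was the reverse of that of Chrna1, highest in miR-124a 1 and lowest in miR-124a 3. The other Agrn probe, at base 3611 of the transcript, was dim and gave 0.53 ± 0.25.

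Lrp4, the agrin receptor, also acts in bone, limb and epithelium. Its brightest probe (chromosome 2, 91353832 to 91353891) had a signal of 1.56, 1.496 and 1.33 in the controls and of 1.34, 1.18 and 1.36 with miR-124a, and the groups overlapped. The difference was -0.18 ± 0.11 and did not pass. Of its other probes, the one at base 2202 of variant 1 gave -0.02 ± 0.24. The probes of the shorter variant 2 gave -0.46 ± 0.10, with all miR-124a tumours below the controls, and -0.35 ± 0.35, with overlap. Both of these probes were dim, and the latter was well above background in only 2 of 3 miR-124a tumours, so the sizes are uncertain. Lrp4 values thus ran from near 0 to a small decrease depending on the probe.

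Musk, the receptor kinase that agrin and LRP4 activate, had a signal of 0.490, 0.671 and 0.657 in the controls and of 0.209, 0.179 and 0.268 with miR-124a (chromosome 4, 58387070 to 58387129). The groups did not overlap, and the difference was -1.48 ± 0.20, or 2.78-fold lower. A probe designed on Musk variant 6 (58368880 to 58368939) gave -2.17 ± 0.38. Its intensity before scaling was 120.6, 50.2 and 45.0 in control 1 to 3 against 15.7, 15.4 and 15.3 with miR-124a. The treated values were dim, so the size of the difference at this probe is uncertain. Control 1 alone was far above the other controls there, although it was the lowest control at the first probe.

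Dok7, the adaptor that binds MuSK from inside the cell, had a signal of 3.996, 5.22 and 3.67 in the controls and 1.45, 1.57 and 1.88 with miR-124a (chromosome 5, 35423495 to 35423554). The highest treated tumour lay below the lowest control, and the difference was -1.39 ± 0.17 (2.62-fold lower). Its other probes, at base 2384 of the RefSeq transcript and at base 1528 of the Ensembl transcript, gave -1.41 ± 0.17 and -1.04 ± 0.09. All 3 Dok7 probes therefore showed separate groups.

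Rapsn encodes rapsyn, the scaffold under the receptor clusters. Its single probe (chromosome 2, 90885183 to 90885648, across a splice junction) had a signal of 0.719, 1.05 and 0.793 in the controls and of 0.254, 0.228 and 0.344 with miR-124a. The groups did not overlap, and the difference was -1.63 ± 0.21, or 3.10-fold lower.

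**Figure D3:**
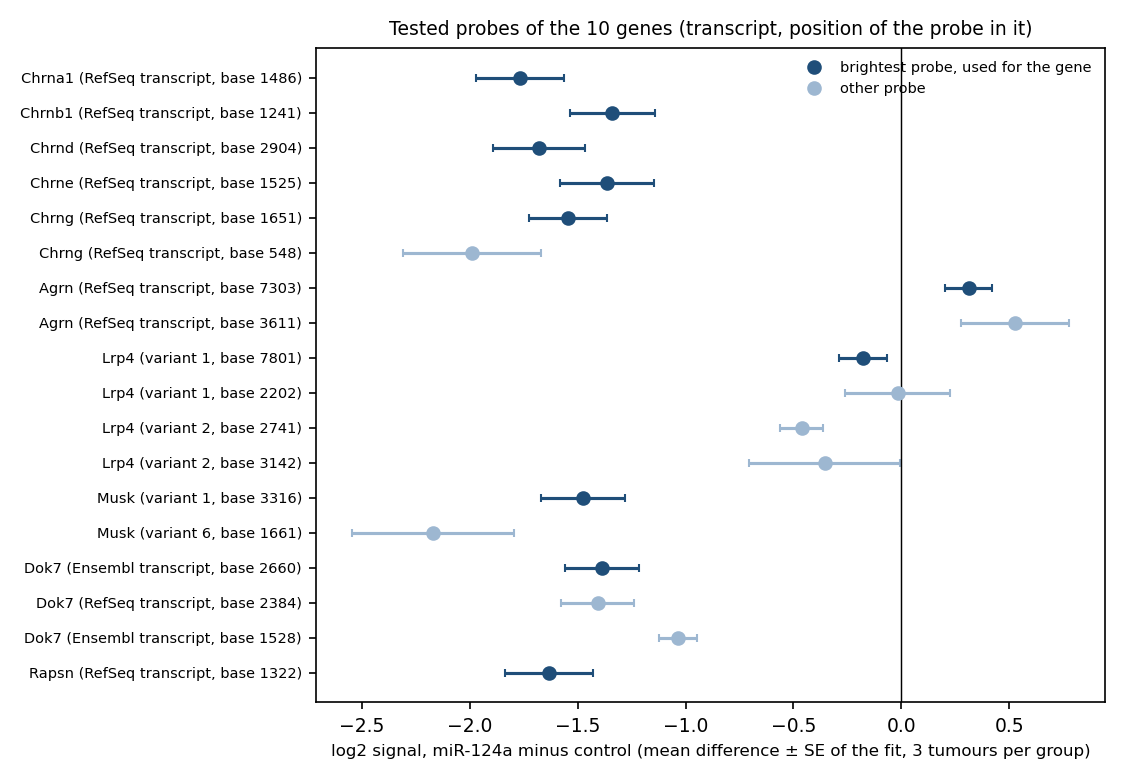
Log2 difference (miR-124a minus control, 3 tumours per group) at the 18 tested probes of the 10 genes, with the transcript and the base in it. Bars are the SE of the fit across all tested probes, and dark points are the brightest probe of each gene. Probes of one gene agree in direction, those of Agrn lie above 0, and those of Lrp4 run from -0.46 to -0.02.

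The 8 genes also shared the highest tumour of each group. Among the treated tumours miR-124a 3 was the highest for 8 of 8, and the lowest was miR-124a 1 for 5 and miR-124a 2 for 3. Among the controls, control 2 was the highest for 8 of 8. For some genes its margin was very small, as for Chrna1, with a signal of 7.73, 7.81 and 7.71 in control 1 to 3. The share of all genes with the same highest tumours was not counted. The median of the receptor subunits, relative to the control mean, was -1.91 in miR-124a 1, -1.74 in miR-124a 2 and -1.26 in miR-124a 3. Skeletal muscle markers had a similar median in these treated tumours, at -1.86, -1.78 and -1.24, and 18 of 19 had miR-124a 3 as the highest. In control 1 to 3 the receptor median was -0.11, 0.11 and -0.01. The muscle median spread more widely there, at -0.04, 0.39 and -0.29. All 19 tested markers were lower in every treated tumour than in every control, beside 20.6% of all genes. Of these 18 were past the threshold (limma over all genes), beside 2.75% of all genes called lower. The list was chosen with earlier results of these data known. The summed signal of the markers ran from 845 to 1310 in the controls and from 316 to 466 with miR-124a. Myf5, the other marker of the list of 20, was not tested. The part of muscle content in the receptor values was not tested.

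Set against the muscle median of each tumour, both on the log2 scale relative to the control mean, the 8 genes lay between -0.29 and 0.40 in the treated tumours, while the controls lay between -0.38 and 0.42. Agrn lay 1.39 to 2.32 above the muscle median in the treated tumours and Lrp4 1.14 to 1.74 above. In the treated tumours the 8 genes lay nearer to the muscle median than Agrn and Lrp4 did. The 8 genes are the members called lower in this same comparison, and the muscle markers were lower too. This order therefore follows from the choice of genes and tests nothing. The muscle median itself ran from -0.29 to 0.39 in the controls, so the control range holds that spread too. Some genes kept to the same side of it in miR-124a 1 to 3: Chrnb1 at 0.28, 0.26 and 0.32, Chrna1 at -0.29, -0.05 and -0.10. These offsets were not tested.

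**Figure D4:**
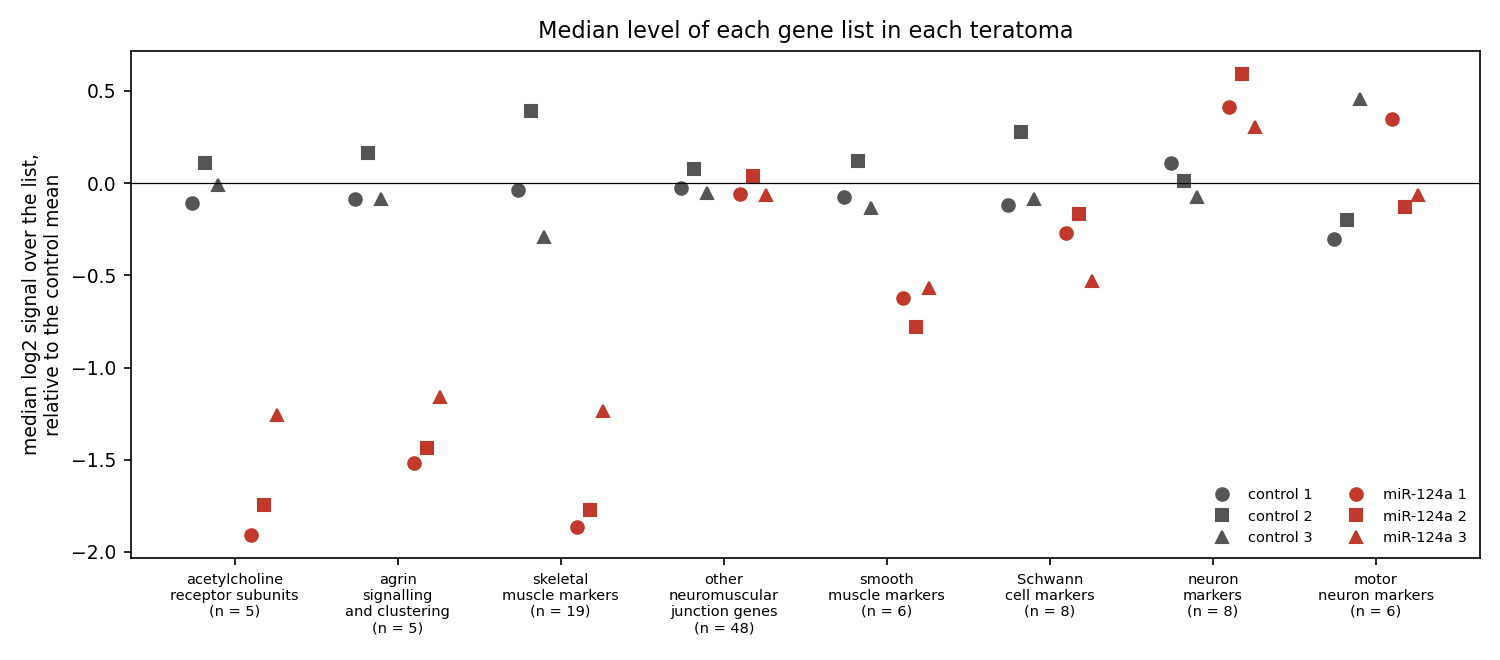
Median log2 signal of each gene list in each teratoma, relative to the control mean; points are tumours, symbols mark the replicate, and n is the number of genes. The receptor subunits and the skeletal muscle markers lie between -1.91 and -1.24 in the miR-124a tumours with miR-124a 3 the highest, while the median of other junction genes stays between -0.06 and 0.08 in every tumour.

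Markers of nerve and of other tissues were read in the same tumours, and their differences from the receptor genes were not tested. The 8 neuron markers had higher values with miR-124a, by a median of 0.46, and 0 passed (limma); 6 of them had every treated tumour above every control, beside 15.0% of all genes. Of 8 motor neuron markers 6 were tested, with a median of 0.16, and Mnx1 and Isl2 were not well above background in either group as a whole. The choline acetyltransferase gene Chat and the acetylcholine carriers Slc18a3 and Slc5a7 were dim, with differences of 0.29 ± 0.14, 0.35 ± 0.37 and 0.22 ± 0.24 that did not pass. Isl1, which sensory neurons, heart and gut also express, fell by 1.06 ± 0.17 (limma, adjusted p = 0.0350). Schwann cell markers had a median of -0.26, with 0 of 8 past the threshold and a summed signal of 23.4 to 31.2 in the controls and 19.6 to 22 with miR-124a. Smooth muscle markers had a median of -0.62, with 3 of 6 past the threshold, all lower, beside 2.75% of all genes called lower. Acta2, Smtn and Actg2 fell by 1.14 ± 0.11, 1.27 ± 0.16 and 0.95 ± 0.11 (limma). The other 3, Tagln, Cnn1 and Myh11, had -0.30 ± 0.11, -0.08 ± 0.23 and 0.11 ± 0.20 and did not pass.

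A list of 48 other genes of the junction held its matrix, its membrane cytoskeleton, its neuregulin signalling and its nerve terminal. All were tested; 5 fell, 0 rose and 43 did not pass (limma, adjusted over all genes), beside 3.23% of all genes called in either direction, and the median difference was -0.01. Colq, the collagen tail that anchors acetylcholinesterase in the synaptic matrix, fell by 1.03 ± 0.13 (adjusted p = 0.0242 by limma, n = 3 per group). Lama2, the laminin chain of the muscle basement membrane, fell by 0.71 ± 0.11, and Plec, the cytoskeletal linker plectin, by 0.79 ± 0.13 (adjusted p = 0.0339 and 0.0397). Prkar1a, a regulatory subunit of protein kinase A, fell by 0.58 ± 0.11 (adjusted p = 0.0460), and Erbb3, a neuregulin receptor of muscle and Schwann cells, by 1.00 ± 0.18 (adjusted p = 0.0469). With control 1 or control 2 left out this count was 0, and with control 3 left out it was 2. Leaving out miR-124a 1 gave 0, leaving out miR-124a 2 also gave 0, and leaving out miR-124a 3 gave 1.

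Other genes of this list that are tied to the junction did not pass. Sntb1, a syntrophin of the dystrophin complex, and Scn4a, the sodium channel of muscle, were dim and had differences of -1.11 ± 0.22 and -1.15 ± 0.25 (adjusted p = 0.0528 and 0.0638, limma), each with every treated tumour below the controls. Utrn, the utrophin of the postsynaptic membrane, had -0.35 ± 0.10 (adjusted p = 0.0935), with separate groups. Ache, the esterase that COLQ anchors, had -0.03 ± 0.30 (adjusted p = 0.955). Nrg1, the neuregulin ligand, and Ncam1, an adhesion molecule of both nerve and immature muscle, had 0.32 ± 0.15 and 0.27 ± 0.12 (adjusted p = 0.220 and 0.215), with every treated tumour above the controls.

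**Figure D5:**
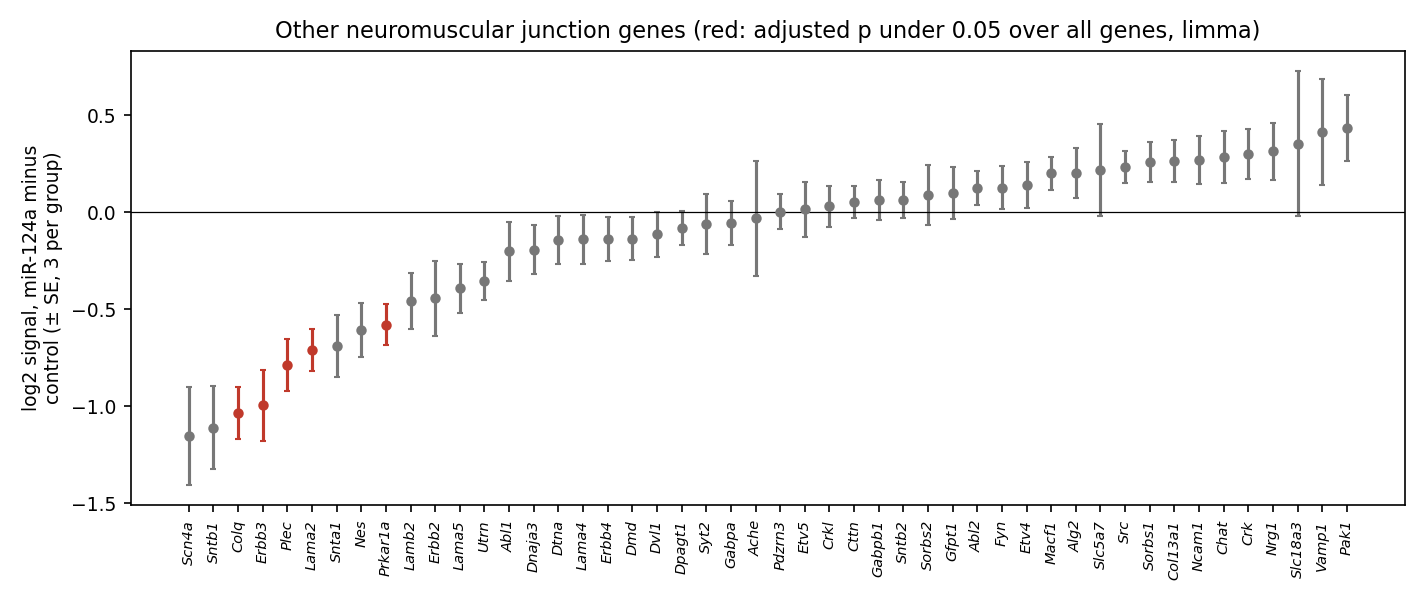
Log2 difference (miR-124a minus control) with the SE of the fit for the 48 other junction genes, in rising order; 3 tumours per group. The 5 genes past the threshold (red) are Colq, Erbb3, Plec, Lama2 and Prkar1a, all lower, and 43 genes (grey) did not pass.

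Nicotinic subunits of neurons and sensory cells were listed beside the muscle subunits. Of 11 such genes 8 were tested, and Chrna3, Chrna5 and Chrnb3 were not well above background throughout either group. None of the 8 passed (0 by limma; 2 had an unadjusted p under 0.05, beside 27.3% of all genes), and the median difference was 0.05. The 2 were Chrnb4 and Chrnb2, beta subunits of ganglionic and brain receptors, with 0.69 ± 0.17 and 0.58 ± 0.16 (adjusted p = 0.0751 and 0.0935, limma), each higher in every treated tumour. Chrna6 had 0.885 ± 0.42, Chrna4 0.12 ± 0.27 and Chrna7, of the receptor that binds bungarotoxin in brain, -0.02 ± 0.20. Chrna2, Chrna9 and Chrna10 had -0.10 ± 0.15, -0.36 ± 0.28 and -0.44 ± 0.44; most of these genes were dim. The difference between muscle and neuronal subunits was not tested.

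The profile of Chrna1 over the 6 tumours was set against all other genes by the root mean square difference of log2 values centred on the control mean. The nearest of the first 5 was a transcript that the array lists as a long noncoding RNA, named only by its place (chromosome 2, 77146893 to 77155643, build mm9), at 0.0527; it was well above background in all 3 controls but in only 1 of 3 treated tumours, so that its distance rests partly on values near background. The others were Prkag3, a subunit of the muscle AMP-activated kinase, at 0.0705, Chrnd at 0.1205, Myl3, a myosin light chain, at 0.147 and Ryr1, the calcium release channel of muscle, at 0.149. The delta subunit was thus the closest of the members to the alpha subunit, followed by Chrng in place 44 and Rapsn in place 59. Chrne was farther, and Lrp4 and Agrn, at 1.15 and 1.51, had other profiles.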

How the data were processed

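Per the labels, 6 teratomas gave total RNA that was Cy3-labelled for 1-colour Agilent arrays. Per the file headers and the submitters' processing notes, Agilent Feature Extraction 11.5.1.1 gave the deposited spot intensity, corrected for background and trends within the array; arrays were not scaled to each other. The authors' deposited log2 value table equals log2 processed intensity shifted per array (SD of the difference at most 0.00291, from the values), and was used as an alternative.

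Of 62976 spots 59305 are not controls. Spots of a probe were averaged to 56605 probes, and 22 flagged as outliers were left out. Intensities were divided by the array's 75th percentile over non-control spots, 278.6 to 315.2, and taken to log2. A probe was tested if well above background on all 3 arrays of a group; a gene was its brightest tested probe. Names came from RefSeq accessions (32979 probes), symbols (10223), older symbols (520) or the file (12861). limma 3.58.1 (R 4.3.3) tested miR-124a against control, adjusted by Benjamini-Hochberg over 22946 genes, threshold 0.05; the fit was tested on simulated data. A median over a list is per tumour. The members and lists were chosen with earlier results of these data known. Named genes are the members, the 6 other junction genes with the smallest p and Ache, Colq, Utrn, Ncam1, Scn4a, Nrg1 and Erbb3, every tested nicotinic subunit, 4 denervation genes (1 of them is not reported here), and the 5 genes most like Chrna1; genes of marker lists named beside these were chosen after their values were seen. Alternatives were quantile scaling, normexp (offset 50), the deposited table, other filters, mean of probes, the replicate number as a block, variance trend, array weights and leaving out each tumour. Figures used matplotlib 3.10.9. Protein sequences and miR-124 were not looked up here.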

Additional observations from a re-analysis of the deposited data

How the results depend on the processing

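The counts of genes past the threshold moved with the setting for all genes, the members and the other junction genes, while that of the other nicotinic subunits was 0 in every setting run; the causes were not tested. Over all genes the main count of 742 (630 lower) became 1542 with normexp and quantile scaling (963 lower, 62.5%, against 84.9%), 1723 with a variance trend, 96 without a filter on dim probes, where 37001 genes were tested, and 0 with the replicate number as a block (4954 at an unadjusted p under 0.05, limma). The 8 members became 0 without the filter and 0 with the block, and the 5 other junction genes became 8, 9, 0 and 0 under normexp, the trend, no filter and the block. Leaving out 1 tumour gave 0 to 367 for all genes, 0 to 8 for the members, 0 to 2 for other junction genes and 0 in each case for the other nicotinic subunits, with 1 tumour fewer in each fit. Deviations of same-numbered tumours had correlations of -0.155, -0.039 and -0.065, and those of other pairs ran from -0.208 to 0.337. With 3 tumours per group these values cannot decide whether the number pairs tumours. No member changed direction in 15 alternatives. Dim probes limit Chrnb1, Chrne and Musk, whose differences with normexp were -0.57, -0.78 and -1; that of Rapsn was -1.19. The mean of the probes gave -1.82 for Musk and 0.42 for Agrn, which had 0.46 with quantile scaling.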

Other observations

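Genes that muscle switches with innervation were a further list of 10, all tested. Of these 2 fell and 8 did not pass (limma over all genes), beside 2.75% of all genes called lower, with a median log2 difference of -0.405. Runx1, a transcription factor that rises in denervated muscle and is also made by blood and epithelial cells, fell by 1.22 ± 0.22 (adjusted p = 0.0465, n = 3 per group). Gadd45a, a stress gene that rises on denervation, fell by 1.02 ± 0.18 (adjusted p = 0.0415). Trim63, a ubiquitin ligase of muscle wasting, had -1.53 ± 0.30, which did not pass (adjusted p = 0.0536, limma), although it was lower in every treated tumour.

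Markers of further tissues did not pass in the same tumours. Heart muscle markers had a median of -1.08 over 6 tested genes with 0 past the threshold: 1 had every treated tumour below the controls (Nkx2-5, beside 20.6% of all genes) and 1 had every one above (Hcn4, beside 15.0%). The controls differed widely for some of them. In control 1 to 3 the log2 signal of Myh6 was 2.41, -1.23 and 2.46, and that of Myl7 was 1.88, -2.39 and 1.60. Epithelial markers, from cells that make agrin, had a median of -0.32 over 7 genes, with 0 past the threshold, and endothelial markers one of -0.08 over 5, also with 0.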
